A study of Mus musculus with 21 samples.

Results

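The miR-23/27/24 clusters are a pair of paralogous loci that each encode hairpins for miR-23, miR-27 and miR-24. The a cluster on chromosome 8 holds Mir23a, Mir27a and Mir24-2, and the b cluster on chromosome 13 holds Mir23b, Mir27b and Mir24-1. The 8 mature products described here were picked by name among the 1647 mature miRNAs of the deposited count table. They are mmu-miR-23a-3p, mmu-miR-27a-3p and mmu-miR-24-2-5p from the a cluster, mmu-miR-23b-3p, mmu-miR-27b-3p, mmu-miR-27b-5p and mmu-miR-24-1-5p from the b cluster, and mmu-miR-24-3p, which both loci encode.

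Small RNA was sequenced from the cochlea and the superior olivary complex (SOC, an auditory brainstem nucleus group) of mice before birth, at birth and after hearing onset. All animals were untreated and wild type (WT), of the substrain C57BL/6JOlaHsd for the cochlea and C57Bl6/J for the SOC, with each library made from the pooled tissue of several mice. The cochlea, labelled as inner ear sensory epithelium, gave 2 libraries at embryonic day 16 (E16), 4 at postnatal day 0 (P0) and 4 at postnatal day 16 (P16). The SOC gave 4, 4 and 3 libraries. Library totals ran from 124400 to 447419 counts in the cochlea and from 8309669 to 18053698 in the SOC. Each organ had its own RNA isolation and library kit, so that organ, kit and substrain cannot be told apart and levels are not compared between the organs.

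The SOC libraries fall into 3 sets that stand apart in composition. In 4 libraries (set A: E16 replicates 2 and 3, P0 replicates 2 and 3), 17.2 to 19.6% of all counts lay on miR-99b-5p, against 1.43 to 3.84% in the other 7. In 3 libraries (set C: P0 replicate 4, P16 replicates 2 and 3), 0.277 to 0.322% lay on miR-191-5p, against 3.84 to 8.15% in the rest. Set B holds the remaining 4, which are E16 replicates 1 and 4, P0 replicate 1 and P16 replicate 1. Set A has no P16 library and set C no E16 library, so member results in the SOC are given with and without these sets. What made the sets differ was not tested.

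Each cluster is transcribed as a shared precursor that is cut into separate hairpins, and either arm of a hairpin can be loaded into Argonaute to repress transcripts that match its seed. These miRNAs are widely expressed and are known from endothelial cells, muscle and cells that leave the cell cycle, where miR-24 and miR-27 act on cell-cycle and differentiation genes. In the auditory organs the interval studied spans the differentiation of sensory and brainstem cells up to the onset of hearing.

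Mature sequences were matched by name for 7 of the 8 products in the RefSeq annotation at hand (GRCm38.p6), and mmu-miR-23b-3p was not matched. They are shown because they decide which products can be assigned to a cluster, with the seed (bases 2 to 8) in capitals.
mmu-miR-23a-3p: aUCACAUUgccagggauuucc
mmu-miR-27a-3p: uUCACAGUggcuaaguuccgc
mmu-miR-27b-3p: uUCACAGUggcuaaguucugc
mmu-miR-27b-5p: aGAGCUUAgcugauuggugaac
mmu-miR-24-3p: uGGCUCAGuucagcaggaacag
mmu-miR-24-1-5p: gUGCCUACugagcugauaucagu
mmu-miR-24-2-5p: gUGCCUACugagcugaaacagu
miR-27a-3p and miR-27b-3p share the seed UCACAGU, their first 18 bases and all others except C19U, counted from 1 at the 5′ end with the base of miR-27a-3p first. miR-24-1-5p and miR-24-2-5p share the seed UGCCUAC and their first 16 bases, and differ by an edit distance of 2. miR-24-3p has the same sequence at both loci, so its counts cannot be told apart by cluster. How the authors assigned reads that matched more than 1 miRNA is not stated, and the split between miR-27a-3p and miR-27b-3p and between the 5p arms of miR-24 is therefore uncertain. The totals of the miR-23 and miR-27 3p products may also depend on the reference used for counting, which was not tested.

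At both loci the hairpins lie on the plus strand in the order miR-23, miR-27, miR-24. The a cluster spans 404 bases (chr8:84208518-84208921, GRCm38) with gaps of 79 and 56 bases between hairpins, and Mir24-2 lies in an exon of the long noncoding RNA Gm26532. The b cluster spans 792 bases (chr13:63300484-63301275) with gaps of 154 and 423 bases. All 3 b hairpins lie within the protein-coding gene 2010111I01Rik, Mir23b in an intron and the other 2 over an annotated exon, and antisense to an intron of Fancc. The antisense product miR-3074-5p overlaps miR-24-3p by 20 of its 22 bases at both loci, and whether the authors counted by strand is not stated.

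The members differed widely in counts. miR-24-3p made up 97.6 to 98.5% of the members' counts in the cochlea libraries and 66.9 to 93.6% in those of the SOC. All members together held 0.281 to 3.28% of a cochlea library and 0.0600 to 0.268% of an SOC library. In the cochlea the median level of miR-24-3p was 9176 TMM CPM (counts per 1000000 after scaling by the trimmed mean of M values), which placed it 18th among all miRNAs. The next was miR-27b-5p at a median of 83.8 TMM CPM, followed by miR-24-2-5p (30.5), miR-23b-3p (28.3), miR-23a-3p (14.3), miR-24-1-5p (7.93), miR-27b-3p (6.57) and miR-27a-3p (0). miR-24-3p lay above all other members in every library, while from miR-27b-5p down each product's range over the 10 libraries overlapped that of the next in this order.

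In the SOC the order was miR-24-3p (median 765 TMM CPM, 62nd of all miRNAs), miR-24-2-5p (83.0), miR-27b-5p (23.7), miR-24-1-5p (8.995), miR-27b-3p (2.16), miR-27a-3p (0.116), miR-23b-3p (0.0772) and miR-23a-3p (0). The ranges of neighbours in this order overlapped over the 11 libraries, narrowly for miR-24-1-5p and miR-27b-3p (lowest 3.89 and highest 4.10). miR-23a-3p had 28 counts in the whole cochlea series and 9 in the SOC series, and miR-23b-3p 87 and 15. miR-27a-3p had 2 counts in the cochlea, where 8 of 10 libraries were at 0, and 23 in the SOC. A count of 0 allows up to 3 counts, or 5.21 to 23.4 TMM CPM in a cochlea library and 0.136 to 0.349 in an SOC library. Such limits and all intervals on counts cover counting error only, since copies made by PCR are not separate molecules.

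**Figure D1:**
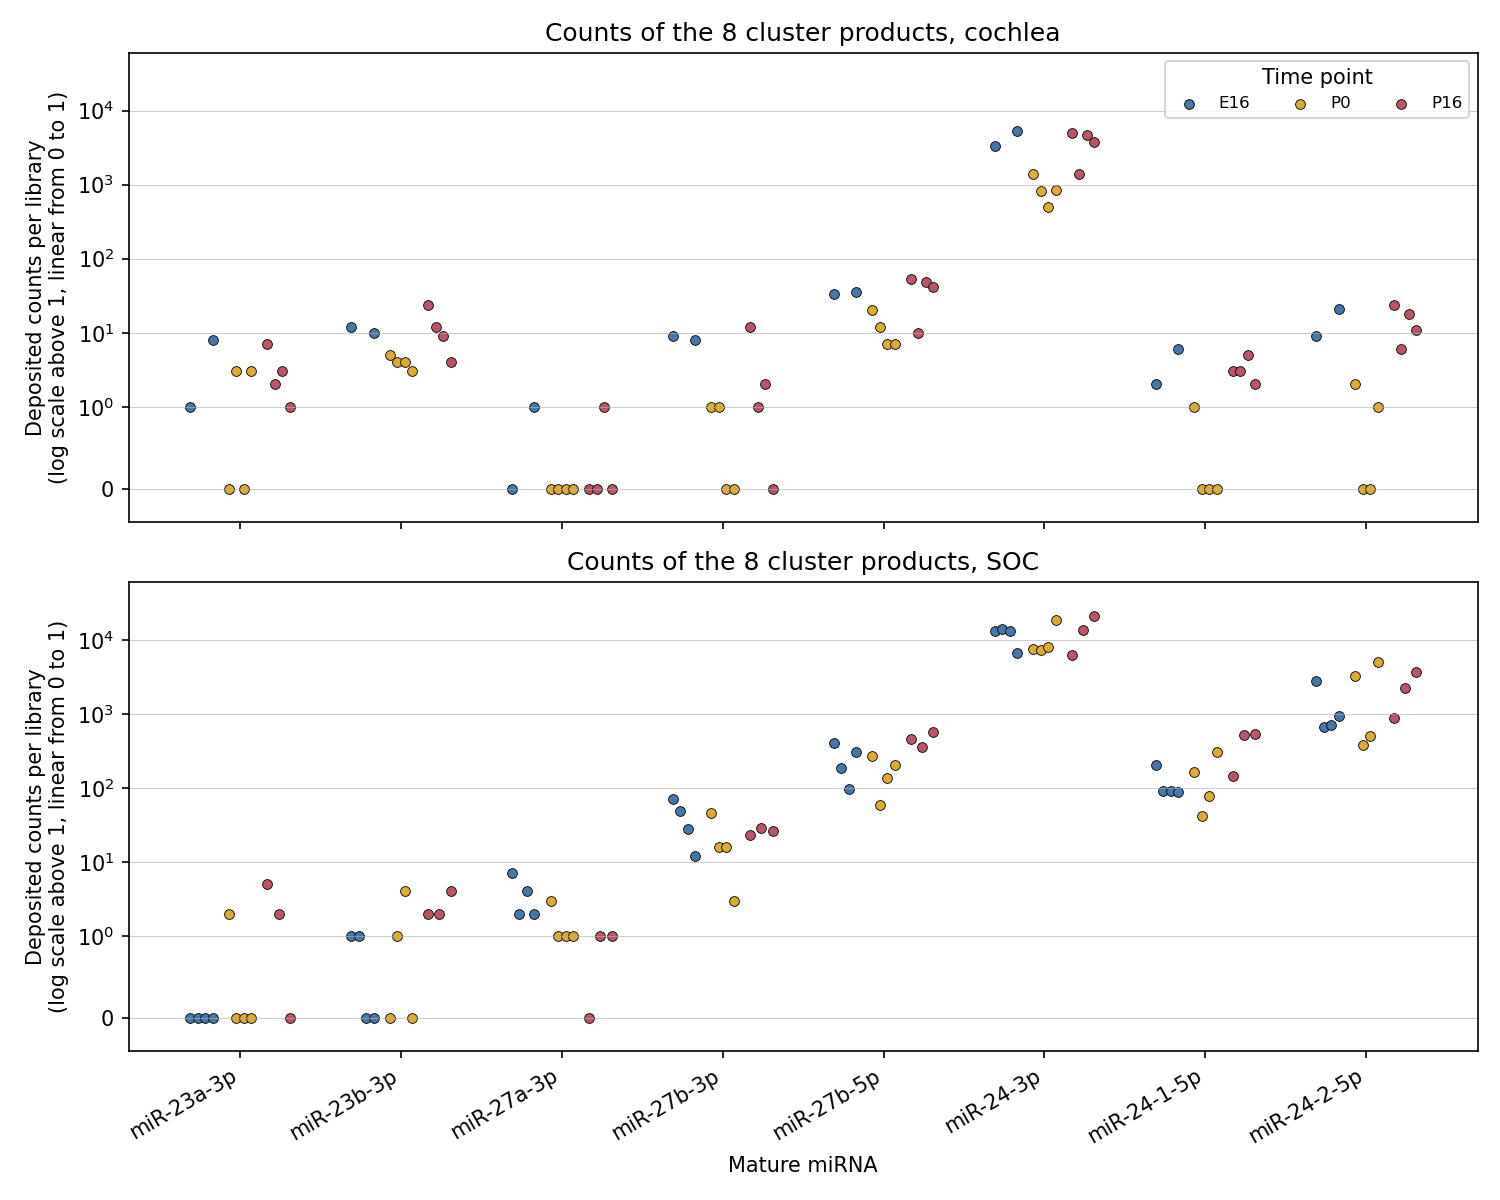
Deposited counts of the 8 products in every library (y axis, log scale above 1 and linear from 0 to 1), with each point a library coloured by time point. miR-24-3p lies between 500 and 5336 counts in the cochlea and between 6185 and 20713 in the SOC, while miR-23a-3p, miR-23b-3p and miR-27a-3p stay at or under 24 counts in every library.

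miR-27b-5p, the arm opposite the better known miR-27b-3p, was the arm with more counts in the deposited table, though the 3p counts may depend on the reference. It exceeded miR-27b-3p in 10 of 10 cochlea libraries (267 against 34 counts in all) and in 11 of 11 SOC libraries (3034 against 318). On the a locus, miR-27a-5p likewise had 54 counts against 2 for miR-27a-3p in the cochlea, and 1310 against 23 in the SOC. miR-24-3p, in contrast, exceeded both 5p arms of miR-24 in every library. Its median ratio to miR-24-2-5p was 7.01 in the SOC libraries and 300 over the 8 cochlea libraries where miR-24-2-5p was counted, a difference in which organ and kit cannot be told apart.

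In the cochlea miR-24-3p and miR-24-2-5p were lowest at P0 and highest at P16. miR-24-3p stood at 9077 and 9274 TMM CPM at E16, at 7562, 3952, 3212 and 4721 at P0, and at 25200, 10720, 30850 and 27920 at P16. No library of a time point overlapped those of another, with P16 replicate 2 the closest to the E16 values. miR-24-2-5p, the 5p arm of the a locus, had 24.5 and 36.5 TMM CPM at E16, 10.7, 0, 0 and 5.54 at P0, and 122, 46.7, 120 and 81.8 at P16. It too was lowest in all 4 P0 libraries and highest in all 4 P16 libraries. miR-24-1-5p, the 5p arm of the b locus, had 2 and 6 counts at E16, 1, 0, 0 and 0 at P0, and 3, 3, 5 and 2 at P16. In TMM CPM its time points kept the same order, with a narrow gap between E16 (lowest 5.44) and P0 (highest 5.35). Since a count of 0 allows up to 3 counts, here 14.6 to 19.3 TMM CPM, this order is not resolved.

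**Figure D2:**
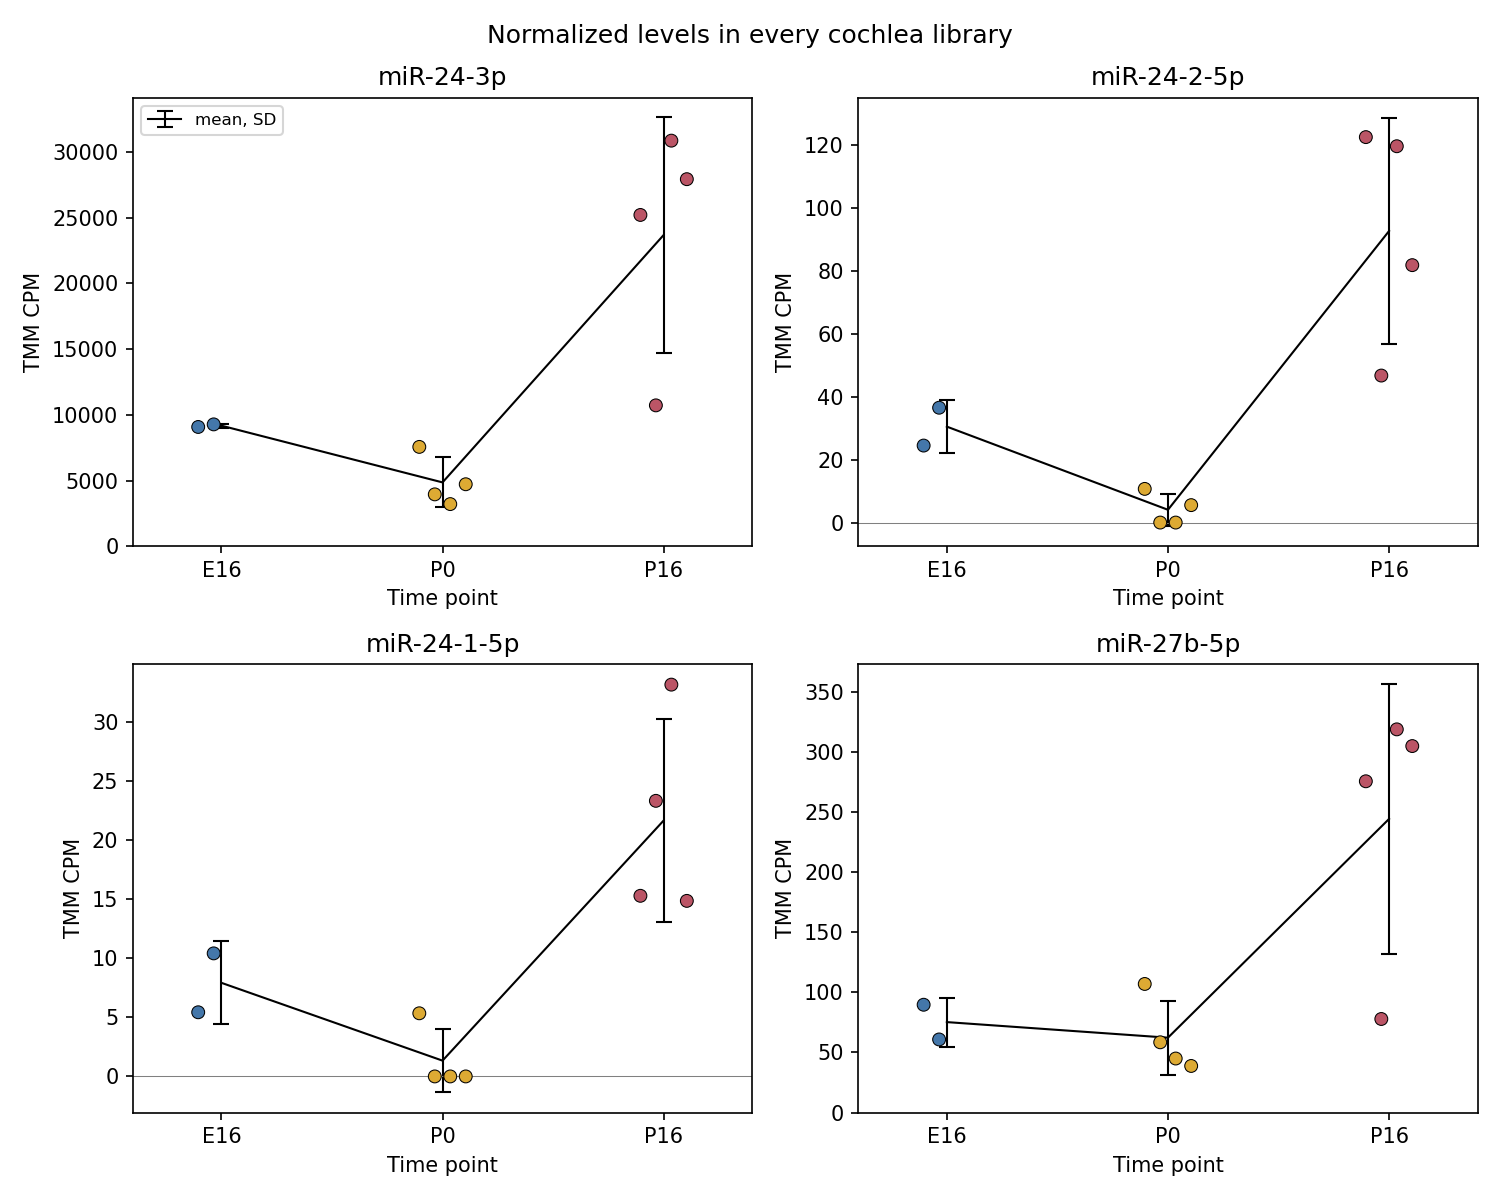
TMM CPM of miR-24-3p, miR-24-2-5p, miR-24-1-5p and miR-27b-5p in each cochlea library by time point, with points for libraries and the line and bars for the mean and SD. For miR-24-3p the 4 P0 libraries lie between 3212 and 7562 and the 4 P16 libraries between 10720 and 30850, and P16 replicate 2 is the lowest P16 library for miR-24-3p, miR-24-2-5p and miR-27b-5p.

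A miRNA counted as differentially expressed (DE) where its adjusted p (FDR) was under 0.05, its groups differed over 1.5-fold and their replicates did not overlap. Of the 8 members 7 passed the detection filter in the cochlea, all except miR-27a-3p. From E16 to P0, 1 of these 7 was DE, against 24.4% of all 896 miRNAs tested. At P16 vs E16 it was 1 of 7 against 29.6%, and at P16 vs P0 it was 2 of 7 against 10.5%. The median log2 fold change of the 7 was that of miR-24-3p in each comparison, -0.92, 1.37 and 2.28, beside medians of 0.00, -0.09 and 0.05 over all miRNAs tested. Scaling by library totals instead of TMM moved the medians over all miRNAs to -0.38 at P0 vs E16 and -0.58 at P16 vs E16, with 0.00 at P16 vs P0, and in the SOC it moved the median at P0 vs E16 from 0.17 to 0.30. The p-values measure the spread between libraries of pooled animals, and in these bulk samples fewer cells of a type and less RNA per cell cannot be told apart.

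miR-24-3p rose from P0 to P16 by 2.28 ± 0.34 on the log2 scale (SE, 4 against 4 libraries, FDR 1.7e-09 by the quasi-likelihood F test of edgeR, adjusted after Benjamini-Hochberg). The FDR was below 0.05 with each library left out in turn (log2 2.13 to 2.63), while on library totals P16 replicate 2 overlapped the P0 libraries and the call was lost. It also rose from E16 to P16 by 1.37 ± 0.43 (FDR 0.00671, 4 against 2), a call that rested on a narrow gap. On library totals it was lost (0.97), with P16 replicate 2 below both E16 libraries, as it was in a single fit of all 21 libraries (1.499, FDR 0.137). It was kept without P16 replicate 2 (1.68) or replicate 3 (1.22), and lost without E16 replicate 1 (1.34, FDR 0.115) or replicate 2 (1.27, FDR 0.133). Without P0 replicates 1 to 4 (1.38, 1.40, 1.41, 1.41) or P16 replicates 1 and 4 (1.35, 1.28), the rescaled E16 and P16 libraries overlapped. From E16 to P0 the value was -0.92 ± 0.39 (FDR 0.0684, edgeR), with every P0 library under both E16 libraries. This became a call without P0 replicate 1 (-1.25, FDR 0.0175) or without P16 replicate 1, 2 or 4 (-0.93 in each, FDR 0.0323, 0.00491 and 0.0482). It was also called on library totals (-1.35, FDR 0.00129) and with at least 10 counts in every library (-1.096, FDR 0.0374).

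miR-24-2-5p fell from E16 to P0 (log2 -2.75 ± 0.96, FDR 0.0209, edgeR) and rose from P0 to P16 (4.34 ± 0.85, FDR 7.09e-06). The P0 level rests on 3 counts in 4 libraries, so both fitted values depend on the prior count. From summed counts the ratio of P0 to E16 was 0.130 (95% counting interval 0.0253 to 0.417, 3 against 30 counts) and that of P16 to P0 was 23.5 (7.66 to 117, 59 against 3 counts). The fall lost its call without E16 replicate 2 (-2.44, FDR 0.170), P0 replicate 2 (-2.37, FDR 0.0796) or P0 replicate 3 (-2.44, FDR 0.0657). Without P0 replicate 1, the library with 2 of the 3 counts, the values were -3.75 and 5.33. At P16 vs E16 miR-24-2-5p stood 1.59 ± 0.75 higher (FDR 0.0860, edgeR), a value that passed without P16 replicate 2 (1.86, FDR 0.0363) and by DESeq2.

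miR-24-1-5p did not pass at P16 vs P0 (3.53 ± 1.36, FDR 0.0634, edgeR), with every P16 library above every P0 library. Its ratio from counts was 15.5 (2.33 to 660, 13 against 1 count). DESeq2 called it, as did the fits without P0 replicate 1 (5.34, FDR 0.0325) or P16 replicate 2 (3.57, FDR 0.0499). P0 replicate 1 held the only P0 count, so that the value without it depends on the prior count and is no exact fold.

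Neither arm of miR-27b was DE in the cochlea at any interval. miR-27b-5p had 89.7 and 60.8 TMM CPM at E16, 107, 58.5, 45.0 and 38.8 at P0, and 276, 77.9, 319 and 305 at P16. In P16, 3 libraries stood above all others, while replicate 2 fell among the E16 and P0 values, and P0 replicate 1 lay above both E16 libraries. The log2 values were -0.25 ± 0.57 at P0 vs E16, 1.71 ± 0.58 at P16 vs E16 (FDR 0.0125, edgeR) and 1.96 ± 0.48 at P16 vs P0 (FDR 0.000574), and the overlap kept both of the latter from a call. Without P16 replicate 2 both were called (2.07, FDR 0.00170, and 2.33, FDR 5.26e-05), and the second also without P0 replicate 1 (2.39, FDR 0.000383).

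miR-27b-3p had 9 and 8 counts at E16, 1, 1, 0 and 0 at P0, and 12, 1, 2 and 0 at P16. The P16 counts lay mostly in replicate 1, and the groups P0 and P16 overlapped. By counts the ratio of P0 to E16 was 0.152 (0.0171 to 0.642) and that of P16 to P0 was 8.96 (2.08 to 80.8). The fit gave -2.58 ± 1.26 (FDR 0.112, edgeR) and 2.80 ± 1.19 (FDR 0.0991). With each library left out in turn, the latter value ranged from 1.20 to 3.31. It was called without P16 replicate 4 (3.22, FDR 0.0451) and in no other refit. At P16 vs E16 the value was 0.23 ± 1.03, and -0.23 on library totals.

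The miR-23 3p products had few deposited counts in the cochlea. miR-23b-3p had 12 and 10 counts at E16, 5, 4, 4 and 3 at P0, and 24, 12, 9 and 4 at P16, or 17.4 to 32.6, 16.6 to 26.8 and 29.8 to 122 TMM CPM. All 4 P16 libraries were above all P0 libraries on this scale, and the fit gave 1.79 ± 0.67 (FDR 0.0549, edgeR). DESeq2 and scaling by relative log expression (RLE) called it (FDR 0.0221 and 0.0392), as did the fit without P16 replicate 4 (2.03, FDR 0.0274). miR-23a-3p, with 9, 6 and 13 counts at E16, P0 and P16, gave no call, which at such counts does not show that its levels were equal. miR-27a-3p had 1 count at E16, 0 at P0 and 1 at P16, so that no fold change is given.

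In the SOC 5 members passed the detection filter, namely miR-24-3p, miR-24-1-5p, miR-24-2-5p, miR-27b-3p and miR-27b-5p. miR-24-1-5p had 12.0, 6.94, 8.995 and 7.56 TMM CPM at E16, 7.51, 3.89, 6.19 and 35.6 at P0, and 13.4, 55.0 and 51.4 at P16. The 3 highest libraries, P0 replicate 4 and P16 replicates 2 and 3, are those of set C. miR-27b-5p had 23.7, 14.1, 9.59 and 26.8 TMM CPM at E16, 12.2, 5.37, 10.7 and 23.7 at P0, and 42.6, 38.1 and 53.7 at P16. Its P16 libraries, from sets B and C, lay above all others.

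miR-24-3p ranged from 574 to 1316 TMM CPM at E16, from 338 to 2139 at P0 and from 582 to 1983 at P16. The highest 3 values were again those of set C, at 1433 to 2139, against 338 to 765 in set B and 624 to 1316 in set A. miR-24-2-5p separated all 3 sets, with 234 to 577 TMM CPM in set C, 80.3 to 165 in set B and 34.7 to 70.8 in set A, and no overlap between the sets. For both miRNAs the time points overlapped. miR-27b-3p had 2.80 to 4.10 TMM CPM in 3 E16 libraries and 1.04 in replicate 4, 0.349 to 2.08 at P0 and 2.16 to 3.08 at P16, and its sets overlapped.

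**Figure D3:**
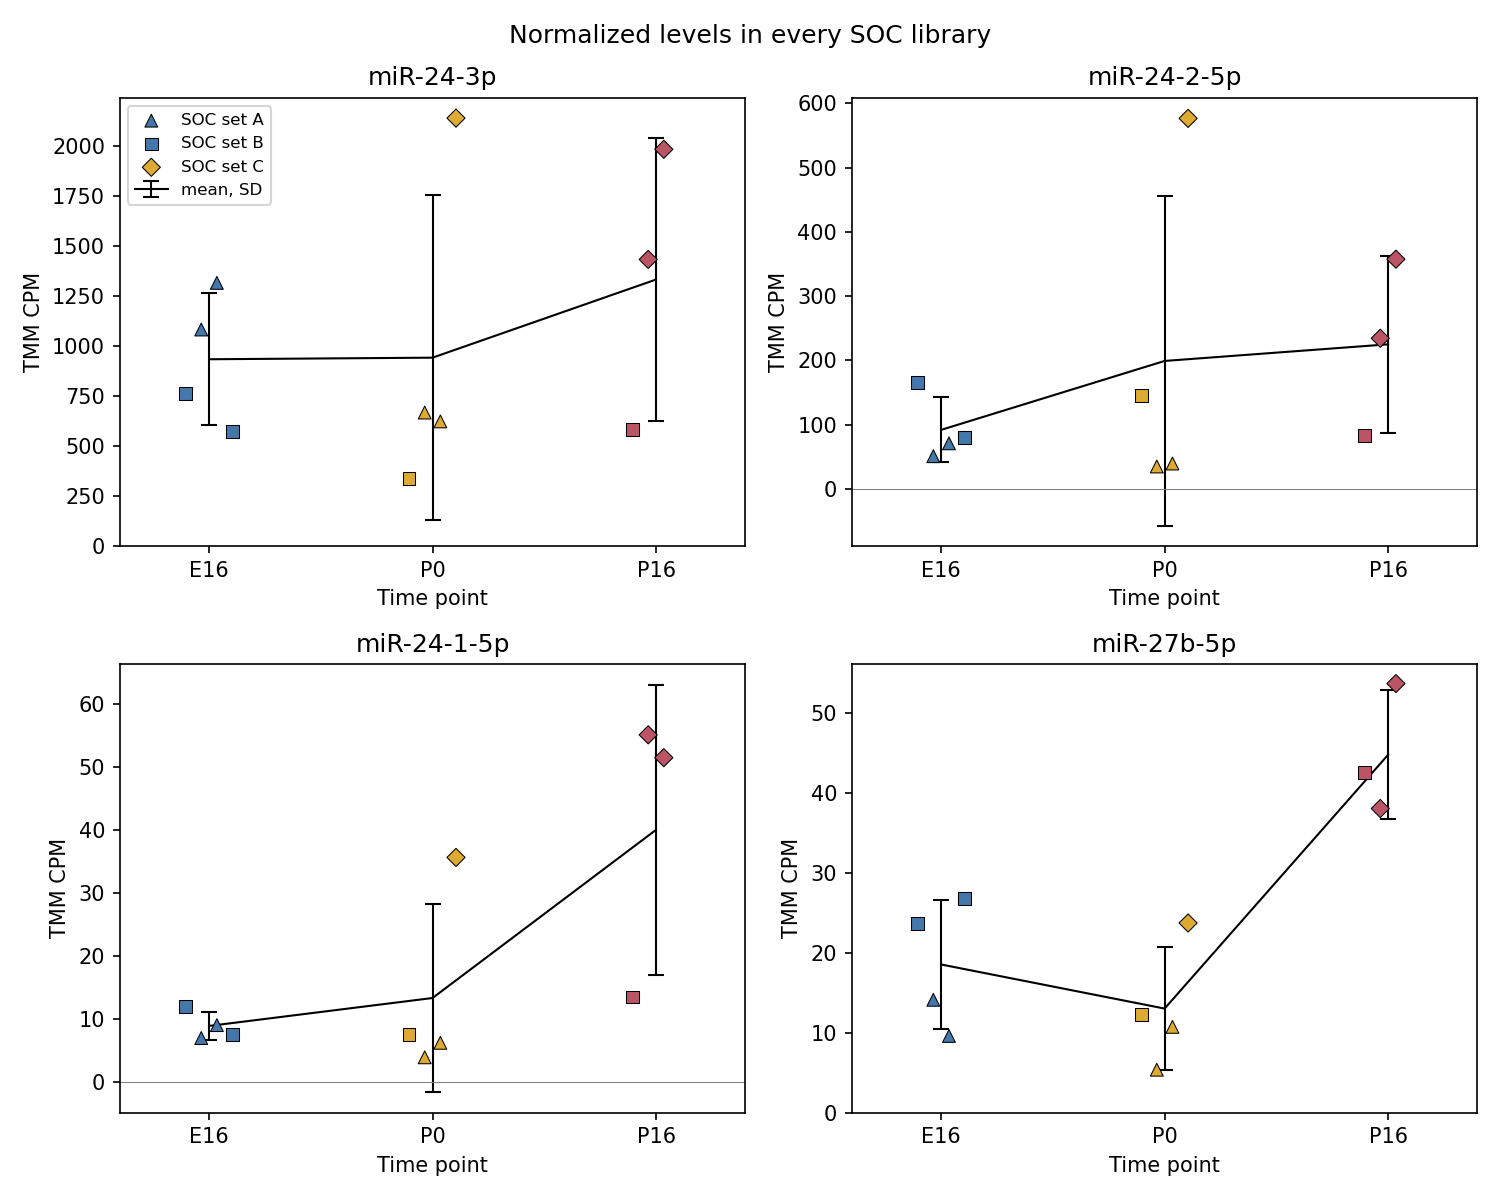
TMM CPM of the same 4 products, miR-24-3p, miR-24-2-5p, miR-24-1-5p and miR-27b-5p, in each SOC library by time point, with marker shapes for the library sets A, B and C, and the line and bars for the mean and SD. The 3 libraries of set C are the highest for miR-24-3p, miR-24-2-5p and miR-24-1-5p, while for miR-27b-5p all 3 P16 libraries, at 38.1 to 53.7, lie above every earlier library.

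At P0 vs E16 edgeR called 0 of the 5 members, with 0 at an unadjusted p under 0.05 and 0 by DESeq2, against 6.63% of all 694 miRNAs tested. miR-27b-3p stood at -1.15 ± 0.56 (FDR 0.242, edgeR), with the 2 groups overlapping. Paired by replicate number, all 4 pairs were lower at P0 (4.10 and 2.08, 3.78 and 1.48, 2.80 and 1.25, 1.04 and 0.349 TMM CPM). With the replicate block edgeR gave -1.22 (unadjusted p 0.0126, FDR 0.0923). No label states such a pairing, and the last pair sets a library of set B against a library of set C. At P16 vs E16 edgeR called 1 of 5 against 41.2%, and at P16 vs P0 1 of 5 against 16.1%. Medians of the 5 were 0.01, 1.27 and 0.96, beside 0.17, 0.08 and -0.15 over all miRNAs. When the library set entered as a covariate, the calls were 0, 0 and 1 of 5, against 13.8%, 40.5% and 20.9% of all miRNAs, and the medians of the 5 were -0.65, 0.26 and 0.75, beside 0.04, -0.17 and -0.14 over all. For P0 vs E16 in that fit, 2 members had an unadjusted p under 0.05, and 1 at P16 vs E16. The overlap of replicates was judged there too on values not adjusted for set.

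miR-27b-5p rose in the SOC from P0 to P16 by 1.78 ± 0.52 on the log2 scale (FDR 0.0340, edgeR, 3 against 4 libraries), and by 1.26 with the set as a covariate (FDR 0.00782). The call was kept without set C (2.05, FDR 0.0455) and lost without set A (1.32, FDR 0.210). Leaving out P0 replicate 1, 2 or 3 or P16 replicate 3 also ended it (1.73, 1.53, 1.81 and 1.76, FDR 0.0797, 0.0753, 0.0607 and 0.0705). At P16 vs E16 its value was 1.27 ± 0.51 (FDR 0.0615, edgeR) with no overlap, and 0.61 with the set as a covariate (FDR 0.154). It passed there without E16 replicate 4 (1.501, FDR 0.0494), P0 replicate 2 (1.28, FDR 0.0437), P0 replicate 4 (1.33, FDR 0.0229) or P16 replicate 1 (1.43, FDR 0.0420), and by DESeq2 (1.26, FDR 0.0365).

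miR-24-1-5p passed at P16 vs E16 in the SOC, with a log2 value of 2.17 ± 0.73 (FDR 0.0296, edgeR, 3 against 4), but this value moved with the sets. It was 0.26 with the set as a covariate (FDR 0.531), 0.56 without set C (FDR 0.409) and 1.97 without set A (FDR 0.155). The call was also lost without E16 replicate 2, 3 or 4 (2.07, 2.18 and 2.10) or P16 replicate 2 or 3 (1.99 and 2.01), with FDR values of 0.0646 to 0.0761. At P16 vs P0 the value was 1.59 ± 0.72 (FDR 0.130, edgeR), with 0.75 under the covariate (FDR 0.0553), 0.89 without set A (FDR 0.568) and 1.08 without set C (FDR 0.174). It was called without P0 replicate 4 (2.79, FDR 0.00371), the only P0 library of set C, or without P16 replicate 1 (2.204, FDR 0.0229), the only P16 library of set B, so that in either refit that set is left out of a time point. miR-24-2-5p turned direction between the fits, from 1.29 ± 0.88 at P16 vs E16 (FDR 0.244, edgeR) to -0.97 with the set as a covariate (FDR 0.0415, replicates overlapping). miR-24-3p went from 0.01 to -0.78 at P0 vs E16 (FDR 0.992 and 0.0224, edgeR) and from 0.51 to -0.59 at P16 vs E16 (FDR 0.513 and 0.0957), with replicates overlapping in each. At P0 vs E16 this overlap lies between sets. Within set A the P0 libraries (668 and 624 TMM CPM) were below those of E16 (1083 and 1316), and within set B P0 (338) was below E16 (765 and 574).

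Members under the detection filter in the SOC gave ratios from a few counts. miR-23a-3p had 0 counts in 4 E16 libraries, 2 at P0 and 7 at P16. P16 replicate 1 held 5 of the 7 counts and P16 replicate 3 held 0, so that no fold change is given for it. miR-23b-3p had 2, 5 and 8 counts, with a ratio of P16 to E16 of 6.76 (95% counting interval 1.35 to 65.3). miR-27a-3p had 15, 6 and 2 counts, with a ratio of 0.225 (0.0250 to 0.969). These intervals treat the libraries of a group as a single pool.

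Whether the organs differed in their change over time was tested on the 545 miRNAs detected in both. None of the 5 members tested had an FDR under 0.05 by edgeR in any of the 3 comparisons, against 11.9%, 16.9% and 6.42% of all miRNAs, while 1, 0 and 2 members had an unadjusted p under 0.05 and 1, 0 and 1 passed by DESeq2. The largest differences, given as SOC minus cochlea, were those of miR-24-2-5p, at 3.84 ± 1.45 for P0 vs E16 (FDR 0.0764, edgeR) and -4.33 ± 1.39 for P16 vs P0 (FDR 0.0571). With the SOC library set as a covariate, 1, 2 and 3 of the 5 members passed, against 31%, 23.3% and 17.1% of all miRNAs. In that fit miR-24-2-5p differed at each interval (2.50, -2.85 and -5.36, FDR 0.0397, 0.00342 and 0.000168), and miR-24-3p at P16 vs E16 (-2.19, FDR 0.00505) and P16 vs P0 (-2.21, FDR 0.00187). miR-24-1-5p passed at P16 vs P0 (-3.26, FDR 0.0491). miR-27b-5p passed in none of these fits, with -0.22 ± 0.78 at P16 vs P0 (FDR 0.889) and -0.81 with the covariate (FDR 0.389).

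**Figure D4:**
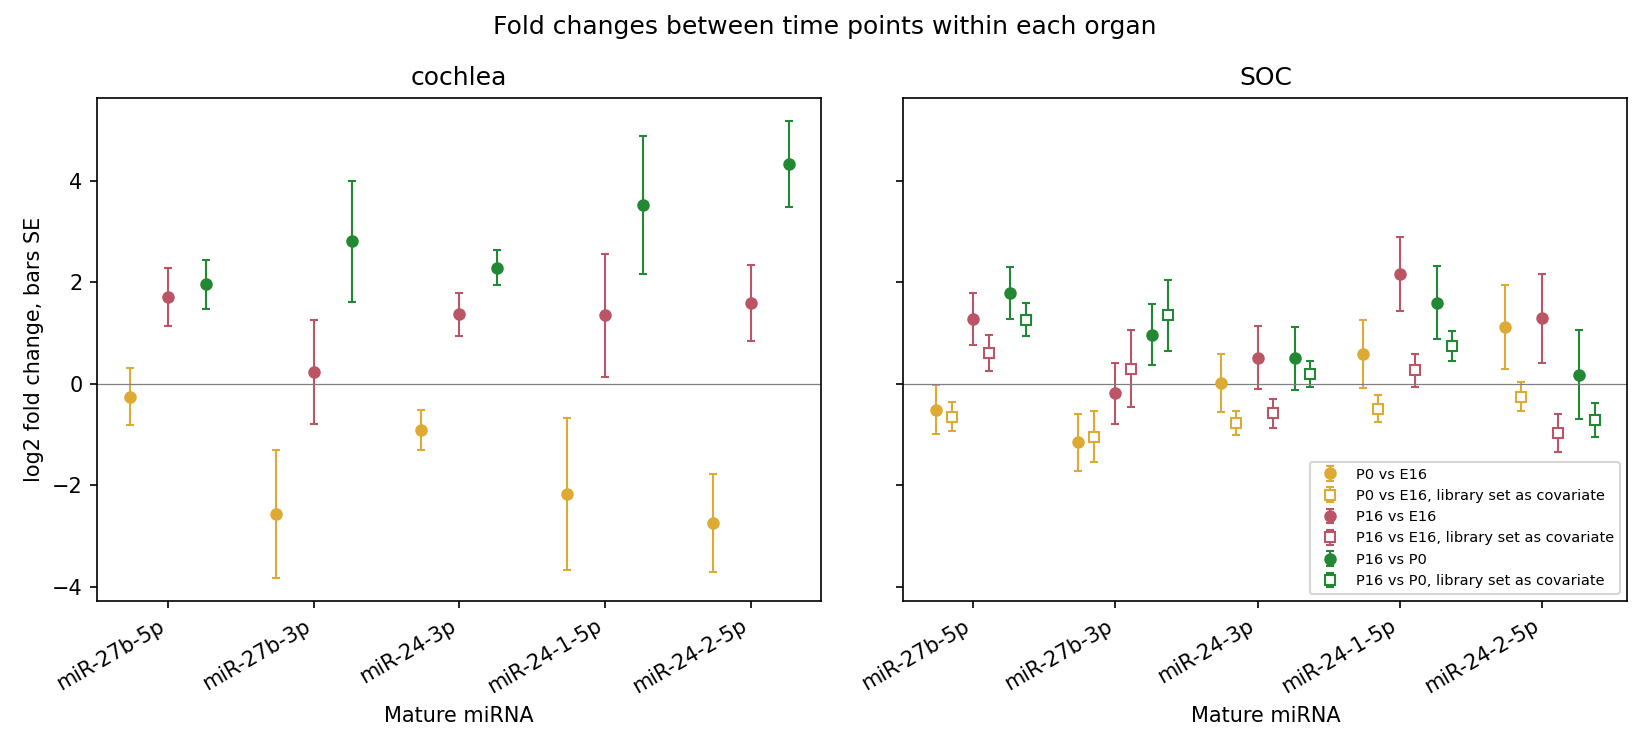
Fold changes (log2, y axis) of the 5 members tested in both organs for each pair of time points, with bars for the SE. Filled points are fits without the library set, open squares in the SOC fits with it as a covariate, and in the SOC miR-24-2-5p goes from 1.29 to -0.97 at P16 vs E16 while miR-27b-5p stays above 0 at P16 vs P0 in both (1.78 and 1.26).

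The clusters were contrasted through the ratio of the b product to its a counterpart within each library, which does not depend on scaling. For miR-27-3p in both organs, and for miR-23-3p in the cochlea, the b product was the more counted in most libraries, whereas for the 5p arms of miR-24 it was the a product. In the SOC miR-27b-3p held 75.0 to 100% of the summed miR-27-3p counts, with the lowest share in P0 replicate 4 on 4 counts (95% Wilson interval 30.1 to 95.4%). miR-24-1-5p held 4.91% (4.23 to 5.69%, P0 replicate 1) to 19.0% (17.6 to 20.5%, P16 replicate 2) of the summed 5p counts of miR-24 in the SOC. In the cochlea miR-24-2-5p exceeded miR-24-1-5p in 8 of 10 libraries and was below it in none, and the other 2 were at 0 for both. miR-23b-3p exceeded miR-23a-3p in 9 of 10 cochlea libraries and in 5 of 11 in the SOC, where it was lower in 2.

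Over time none of 18 changes in these ratios passed Benjamini-Hochberg adjustment in a two-sided exact permutation test, whose smallest possible p was 0.0667 for 4 against 2 libraries and 0.0286 for 4 against 4 or 3. The ratio of miR-24-1-5p to miR-24-2-5p in the SOC was -3.25 ± 0.42 at E16, -3.52 ± 0.75 at P0 and -2.50 ± 0.37 at P16 (mean log2 and SD, n = 4, 4 and 3). All 3 P16 libraries stood above all E16 libraries, a change of 0.75 (exact permutation p = 0.0571, adjusted 0.3), and P16 vs P0 gave 1.02 (exact p = 0.114, adjusted 0.343). Within set B the changes were 0.97 and 1.65, and within set C P16 vs P0 gave 1.57, each from 1 or 2 libraries a side. For miR-27b-3p to miR-27a-3p the SOC mean was 3.13 at E16, 2.97 at P0 and 4.67 at P16, with all P16 libraries above all P0 libraries (change 1.70, exact permutation p = 0.0571, adjusted 0.3). Within sets B and C that change was 1.82 and 3.00. In the cochlea the ratio of miR-24-1-5p to miR-24-2-5p was 1.33 lower at P16 than at P0 (exact permutation p = 0.0571, adjusted 0.3), where 2 P0 libraries had 0 counts of both. The cochlea ratio of miR-27b-3p to miR-27a-3p had a mean of 3.38 at E16 and 0.79 at P0, where no library had over 1 count of either miRNA (change -2.58, exact permutation p = 0.0667, adjusted 0.3).

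**Figure D5:**
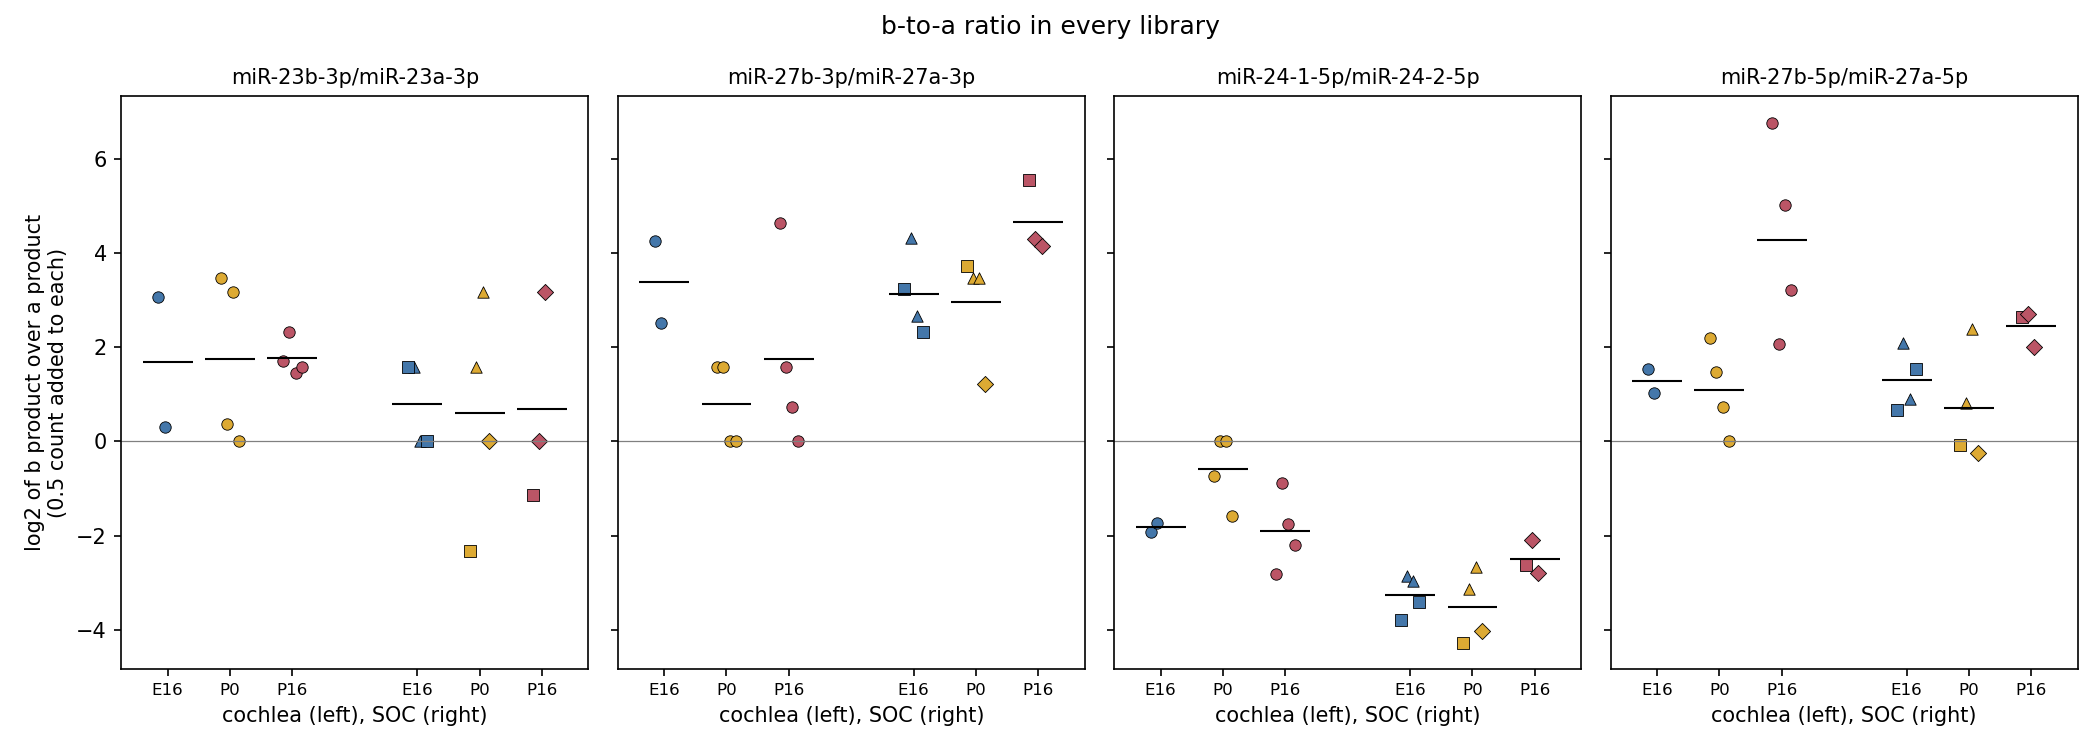
The log2 ratio of the b product to the a product (0.5 count added to each, y axis) in every library, by organ and time point, with bars for the group mean and triangles, squares and diamonds for the SOC sets A, B and C. miR-24-1-5p to miR-24-2-5p is at or below 0 in all 21 libraries, while miR-27b-3p to miR-27a-3p is at or above 0 in all of them.

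The 5p arms of miR-27 were compared in the same way after the data had been seen. In the cochlea the log2 ratio of miR-27b-5p to miR-27a-5p averaged 1.28 in E16 libraries, 1.10 in P0 libraries and 4.27 in P16 libraries. The P16 values were 6.77, 2.07, 5.01 and 3.21, on 0, 2, 1 and 4 counts of miR-27a-5p, so that the first depends on the 0.5 count added, and of these 3 lay above all P0 libraries (change 3.17, exact permutation p = 0.0571, adjusted 0.257 over 12 tests). In the SOC the means were 1.29, 0.71 and 2.45, with changes of 1.15 and 1.73 at P16 vs E16 and P16 vs P0 (exact permutation p = 0.0857 for each, adjusted 0.257). Within set B these were 1.55 and 2.72, and within set C the latter was 2.61. miR-23b-5p to miR-23a-5p had cochlea means of 1.12, 1.17 and 1.84, with a smallest adjusted p of 0.257 in the same two-sided exact permutation tests (P16 vs P0, change 0.67). The same limits on the smallest p held for these 12 tests.

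Among the other products of the loci, miR-23b-5p had 85.2 and 103 TMM CPM at E16 in the cochlea, 195 to 344 at P0 and 276 to 350 at P16. It rose from E16 to P0 by 1.51 ± 0.52 on the log2 scale (FDR 0.0174, edgeR) and to P16 by 1.77 ± 0.52 (FDR 0.00368), where miR-24-2-5p was lowest at P0. Both calls were lost without either E16 replicate (1.65, FDR 0.125, and 1.32, FDR 0.247, then 1.91, FDR 0.0507, and 1.51, FDR 0.149) and on library totals (1.03 and 1.29). They were also lost in the single fit of all 21 libraries (1.52, FDR 0.145, and 1.875, FDR 0.05755). The first was lost as well without P0 replicate 4 (1.38, FDR 0.0621) and with the replicate block (1.3, FDR 0.126). miR-23a-5p had 41.7 and 43.5 TMM CPM at E16 and 92.6 to 161 at P0 and was not DE by edgeR (1.45 ± 0.64, FDR 0.0760), while DESeq2 called it (1.44, FDR 0.0323).

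The antisense miR-3074-5p followed miR-24-3p in the cochlea. It fell from E16 to P0 (log2 -2.12 ± 0.64, FDR 0.00614, edgeR) and rose to P16 (2.89 ± 0.58, FDR 1.26e-05), on 91, 16 and 102 counts. Without E16 replicate 1 the fall had an FDR of 0.0512 (log2 -2.10), and in the single fit of all 21 libraries an FDR of 0.0865 (log2 -2.14). miR-3074-1-3p, antisense at the b locus, fell from E16 to P0 (-2.92 ± 0.87, FDR 0.00577, edgeR, and -2.75 without E16 replicate 1, FDR 0.0958), on 61 and 6 counts. At P16 it had 14 counts (1.44 ± 0.91 above P0, FDR 0.294). In the SOC none of the other products tested (miR-27a-5p, miR-3074-5p and miR-3074-1-3p) was DE, with or without the library set as a covariate. With it, miR-27a-5p went from 0.09 to -1.35 at P16 vs E16 (FDR 0.0233, edgeR) and from -0.41 to -1.125 at P16 vs P0 (FDR 0.0370). miR-3074-1-3p went from 0.12 to -0.86 at P0 vs E16 (FDR 0.0376, edgeR). Replicates overlapped in each of these, and miR-3074-5p had no FDR under 0.05 in that fit.

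Across the 10 cochlea libraries, which share 3 time points, miR-24-3p and miR-24-2-5p had a Pearson r of 0.97 in log2 TMM CPM (Spearman 0.96). Without the 2 libraries farthest from the median r was 0.98, and 0.89 with time point means removed. miR-24-3p and miR-27b-5p had an r of 0.94 (Spearman 0.85, 0.88 without those 2 libraries, 0.91 with time point means removed). miR-24-3p and miR-23b-3p, with an r of 0.62, had -0.28 once time point means were removed. In the SOC no pooled r is given, since the sets hold at most 4 libraries. With set means removed over the 11 libraries, r was 0.44 for miR-24-3p with miR-27b-5p, 0.49 with miR-24-2-5p and 0.54 with miR-24-1-5p, and 0.73 for miR-27b-5p with miR-24-1-5p. It was -0.32 for miR-27b-5p with miR-24-2-5p and 0.10 for miR-24-1-5p with miR-24-2-5p. These values still hold the time course, and with time point means removed instead, which leaves the sets in, the last 2 were 0.74 and 0.92.

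The miRNAs most like miR-24-3p in the cochlea were miR-1a-3p, a muscle miRNA (r = 0.96, n = 10), miR-22-3p (0.96) and miR-146b-5p (0.96), of 241 candidates. For miR-23b-3p they were miR-5100 (r = 0.85), miR-6412 (0.80) and miR-22-3p (0.79). Those named for miR-24-3p were chosen by r over the same libraries, so that a rise to P16 follows in part from the choice. miR-1a-3p rose from P0 to P16 by 3.73 (FDR 2.71e-20, edgeR) and miR-22-3p by 3.36 (FDR 9.48e-16), each kept with every library left out in turn. miR-146b-5p rose by 2.68 (FDR 2.69e-06, edgeR), a call lost in 9 of 19 refits, among them those without E16 replicate 2 (2.59), P0 replicate 2, 3 or 4 (2.50, 2.58 and 2.52) and P16 replicate 1 or 4 (2.68 and 2.76). In the SOC the rule, which orders 173 candidates by an r over all libraries that the sets enter, named miR-532-5p, miR-93-5p and miR-16-5p for miR-24-3p. With set means removed their r was 0.74, 0.83 and 0.78 (n = 11), beside 0.93 for the antisense miR-3074-1-3p, which is below the level asked of candidates, and none of the 3 named was DE at any interval.

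Marker miRNAs of cell types were followed beside the members. Of all miRNAs tested in the cochlea, 24.4% were called at P0 vs E16, 29.6% at P16 vs E16 and 10.5% at P16 vs P0. In the cochlea the summed muscle list (5 of 6 in the table, most abundant miR-1a-3p, miR-133a-3p and miR-208b-3p at 0) had an r of 0.94 with miR-24-3p over 10 libraries, and most of the sum is miR-1a-3p (mean 1320 TMM CPM). It summed to 473 and 549 TMM CPM at E16, 348, 478, 218 and 327 at P0, and 4053, 1098, 4297 and 2209 at P16, with P16 replicate 2 again the lowest of its group. Of 2 muscle miRNAs tested there, 1 fell from E16 to P0, and 1 rose to P16 from either earlier time point (medians of the 2 were 0.05, 1.26 and 1.21, against -1.08, 2.65 and 3.73 for miR-1a-3p). The fall of miR-1a-3p lost its call in 7 of 20 refits. Among them were DESeq2 (-1.1, FDR 0.0805) and the fits without either E16 replicate or without P0 replicate 3 or 4. The endothelial list (3 of 4 in the table, most abundant miR-126a-3p, none at 0) summed to 6035 and 6300 at E16, 1429, 828, 739 and 1064 at P0, and 7008, 2048, 3540 and 2744 at P16, with an r of 0.71 with miR-24-3p. Of its 2 tested miRNAs, 1 fell from E16 to P0 and 1 rose from P0 to P16.

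The list of vascular smooth muscle and mesenchyme (8 of 10 in the table, most abundant miR-214-3p, none at 0) had an r of -0.91 with miR-24-3p in the cochlea as a sum, most of which is miR-214-3p (mean 38200 TMM CPM). It summed to 48110 and 51170 TMM CPM at E16, 52860 to 77850 at P0 and 14720 to 27510 at P16. Of 8 tested, 1 was higher and 4 were lower at P0 vs E16 and again at P16 vs E16 (medians -1.55 and -2.16). Of all miRNAs, 24.4% and 29.6% were called there. At P16 vs P0, 1 was lower (median -0.23), against 10.5% of all miRNAs. The oligodendrocyte list (4 of 5 in the table, most abundant miR-338-5p, miR-219b-3p at 0) summed to 43.5 and 65.2 at E16, 90.0 to 139 at P0 and 716 to 1355 at P16, with an r of 0.80. The epithelial list, which is led by miR-183-5p, had an r of -0.09. It is not particular to the labelled tissue, since it also summed to a mean of 130200 TMM CPM in the SOC at E16. In the cochlea its r, sums and calls are as follows. The list summed to 66950 and 78480 TMM CPM at E16, 40420 to 45820 at P0 and 19190 to 44000 at P16. Of 10 tested, 3 were lower and 0 higher by edgeR at P0 and at P16 than at E16, against 24.4% and 29.6% of all miRNAs.

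As sums, the blood list (7 of 9 in the table, most abundant miR-150-5p) had an r of 0.56 with miR-24-3p in the cochlea and the neuronal list (5 of 5 in the table, most abundant miR-128-3p) 0.25. The blood list summed to 2107 and 2621 TMM CPM at E16, 2082 to 3148 at P0 and 6329 to 29470 at P16, and the neuronal list to 4333 and 3838, then 649 to 1343, then 1059 to 1468. By single miRNAs, 5 of 6 tested in the blood list were lower and 1 higher at P0 vs E16 (median -3.57). In the neuronal list 4 of 5 were lower (median -3.03), and 24.4% of all miRNAs were called. Of the blood list, 3 were lower and 1 higher at P16 than at E16 (median -1.50), against the direction of its sum, which is mostly miR-150-5p (mean 6942 TMM CPM), and 4 of the neuronal list were lower. At P16 vs P0, 2 of the blood list and 1 of the neuronal list were higher and none lower. Of all miRNAs tested, 29.6% were called at P16 vs E16 and 10.5% at P16 vs P0. P16 replicate 2, on which several calls for miR-24-3p and miR-27b-5p depend, had the highest blood sum of its group (29470 against 6329 to 17640) and the lowest epithelial sum (19190 against 37720 to 44000). Each r of a list in the cochlea pools the time points and so holds the time course, and none is given with time point means removed. The part of these cell types in the course of miR-24-3p was not tested.

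The endothelial list in the SOC summed to 858 to 1303 TMM CPM at E16, to 1364, 823, 849 and 7491 at P0, and to 1030, 3738 and 6162 at P16, so that its 3 highest libraries were also those of set C. With set means removed, its r over 11 libraries was 0.87 with miR-24-2-5p, -0.18 with miR-24-1-5p and 0.29 with miR-24-3p. On the same scale miR-24-2-5p had 0.74 with the neuronal, 0.61 with the epithelial and -0.60 with the oligodendrocyte list, and miR-24-3p 0.80 with the muscle and 0.68 with the epithelial list. miR-27b-5p had, with set means removed, an r of -0.80 with the neuronal list (5 of 5 in the table, most abundant miR-9-5p), 0.68 with the vascular smooth muscle and mesenchyme list and 0.66 with the oligodendrocyte list. The vascular list is led there by miR-143-3p (mean 18790 TMM CPM), and of its 6 tested miRNAs 3 were lower and 0 higher by edgeR at P16 vs E16 (median -2.89). At P16 vs P0, where miR-27b-5p was called, 0 of the 6 were higher and 0 lower (median -0.73). Of all miRNAs tested in the SOC, 41.2% were called at P16 vs E16 and 16.1% at P16 vs P0. The neuronal list summed to 37500 to 117700 at E16, 49150 to 108800 at P0 and 24830 to 43240 at P16, and the oligodendrocyte list to 390 to 493, 221 to 475 and 3600 to 9119. With the other lists the r of miR-27b-5p ran from -0.37 (endothelial) to 0.44 (blood). Apart from those of the endothelial list, the r values named here were picked as the largest of each miRNA. All of them still hold the time course. The part of these cell types in the rise of miR-27b-5p was not tested.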

How the data were processed

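The authors deposited raw read counts per mature miRNA, which per the paper they had obtained by aligning reads with Bowtie to mouse miRNAs of MirGeneDB, while the deposited table uses miRBase names. The 8 members and all marker lists were chosen with earlier results of these data known. Each organ was fitted with edgeR 4.0.16 in R 4.3.3 (TMM factors, quasi-likelihood F test, Benjamini-Hochberg over all miRNAs kept, which had over 1 CPM in 2 or more libraries of any time point). SE is the log2 fold change divided by the root of F. Ratios within libraries had 0.5 count added. Relations used log2 TMM CPM with a prior count of 2. Depth was 124400 to 447419 counts per cochlea library and 8309669 to 18053698 per SOC library.

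Named miRNAs were the members, other products of both loci, and, for each 3p member with a mean of at least 20 TMM CPM in an organ, the 3 miRNAs of at least 100 TMM CPM with the highest r. Marker lists covered endothelium, vascular smooth muscle and mesenchyme, blood, oligodendrocyte, neuron, epithelium, and muscle, taken from general knowledge. Libraries with the same replicate number deviated together in the SOC at P0 and E16 (r = 0.490, 0.323, 0.251 and 0.258 over miRNAs, a paired pattern seen in the data and not stated in the labels), as did replicates 2 and 3 of set A across numbers (0.409 and 0.255). No 2 libraries of a group were copies, since their counts differed by at least 5.95 times the chi-square expected from counting. Alternatives were RLE factors, library totals, DESeq2 1.42.0, other filters and call rules, a single fit of all 21 libraries, the replicate block, the library set as a covariate, summed miR-23-3p and miR-27-3p pairs, 1 count added to ratios, and each library left out. The fits without set A or set C and the ratios of 5p arms were added after the data were seen.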

Additional observations from a re-analysis of the deposited data

Results flagged for a closer look

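Of 60 groups of 4 libraries examined, 2 held a library far from the rest by Dixon's criterion, and chance marks about 1 in 20. In the cochlea at P16, replicate 2 had a log2 TMM CPM of 6.35 for miR-27b-5p, against 8.12 to 8.33 in the other 3. In the SOC at P0, replicate 4, a library of set C, had a log2 ratio of miR-27b-3p to miR-27a-3p of 1.22, on 3 and 1 counts, against 3.46 to 3.73 in the other 3.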

How the results depend on the processing

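Of 126 refits of member fold changes that had passed, 92 kept their call, 34 lost it and 0 turned direction. Of all 747 refits of member fold changes, 41 turned direction. The cause of each change below was not tested.

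Members called in the cochlea at P0 vs E16 were 1, against 2 on library totals, 0 in a single fit of all 21 libraries and 0 to 2 with each library left out. At P16 vs E16 they were 1, against 2 by DESeq2 or with no criterion on overlap, and 0 on library totals, with no filter, with at least 10 counts in every library, with the replicate block, with summed miR-23-3p and miR-27-3p pairs, or in the single fit (left out 0 to 3). At P16 vs P0 they were 2, against 4 by DESeq2 and 1 on library totals or with at least 10 counts (left out 2 to 4). There miR-23b-3p was called in addition with RLE, and miR-27b-5p with no criterion on overlap. In the SOC at P16 vs E16 they were 1, against 2 by DESeq2, with at least 10 counts or with the replicate block, and 0 on library totals, with the set as a covariate, without set A, without set C or in the single fit (left out 0 to 2). At P16 vs P0 they were 1, and 0 without set A (left out 0 to 2). Members with a difference between the organs were 0, against 1 at P0 vs E16, 2 at P16 vs E16 and 3 at P16 vs P0 with the set as a covariate, 1 by DESeq2 at P0 vs E16 and at P16 vs P0, and 1 with RLE at P16 vs P0.

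Values that turned direction in the cochlea at P0 vs E16 were 0.12 for miR-23a-3p and 0.25 for miR-23b-3p, both with the replicate block, and at P16 vs E16 -0.23 for miR-27b-3p on library totals. In the SOC at P0 vs E16, miR-24-3p turned to -0.0907 with no filter, -0.16 with at least 10 counts, -0.35 with the replicate block, -0.78 with the set as a covariate and -0.71 without set C. miR-24-1-5p turned to -0.0180 with the replicate block, -0.49 with the covariate and -0.52 without set C, and miR-24-2-5p to -0.25 with the covariate and -0.25 without set C. At P16 vs E16 the covariate gave 0.30 for miR-27b-3p, -0.59 for miR-24-3p and -0.97 for miR-24-2-5p, and leaving out set C gave -0.72 for miR-24-3p and -0.18 for miR-24-2-5p. At P16 vs P0 miR-24-3p was at -0.0139 without set C, and miR-24-2-5p at -0.72 with the covariate and -0.70 without set A. The difference between the organs for miR-24-1-5p at P16 vs E16 was -1.36 with the covariate.

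With each library left out, ranges in the cochlea at P0 vs E16 were -0.75 to 1.32 for miR-23a-3p, -0.59 to 0.33 for miR-23b-3p and -0.66 to 0.0368 for miR-27b-5p, and at P16 vs E16 -1.38 to 0.64 for miR-27b-3p. In the SOC they were -0.72 to 0.33 for miR-24-3p, -0.52 to 0.88 for miR-24-1-5p and -0.25 to 1.46 for miR-24-2-5p at P0 vs E16, -0.47 to 0.0423 for miR-27b-3p at P16 vs E16, and -0.17 to 1.65 for miR-24-2-5p at P16 vs P0.

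Among b to a ratios, miR-23b-3p to miR-23a-3p turned to -0.19 with 1 count added (cochlea, P0 vs E16) and -0.13 with the replicate block (SOC, P16 vs P0). miR-27b-3p to miR-27a-3p turned to 0.46 as a mean within sets (SOC, P0 vs E16), and miR-27b-5p to miR-27a-5p to 0.55 with the replicate block (cochlea, P0 vs E16). With each library left out, miR-23b-3p to miR-23a-3p ranged over -1.31 to 1.44, -1.29 to 1.46 and -0.57 to 0.59 in the cochlea (P0 vs E16, then P16 vs E16, then P16 vs P0) and over -1.04 to 0.79, -1.36 to 0.79 and -1.18 to 0.98 in the SOC. miR-27b-3p to miR-27a-3p ranged over -0.0185 to 1.53 (cochlea, P16 vs P0) and -0.43 to 0.42 (SOC, P0 vs E16), and miR-24-1-5p to miR-24-2-5p over -0.43 to 0.21 (cochlea, P16 vs E16). miR-27b-5p to miR-27a-5p ranged over -0.54 to 0.18 (cochlea, P0 vs E16), and miR-23b-5p to miR-23a-5p over -0.0501 to 0.16 (cochlea) and -0.71 to 0.10 (SOC) at P0 vs E16.

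At P0 vs E16 in the SOC, where libraries of the same number deviated together though no label pairs them, the replicate block changed no member call. Elsewhere libraries of the same number did not all deviate together. The block then gave 1.18 for miR-24-3p in the cochlea at P16 vs E16 (FDR 0.0692 by edgeR, Benjamini-Hochberg), 1.63 for miR-27b-5p in the SOC at P16 vs E16 (FDR 0.0119), and changed no other member call.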

Other observations

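In the SOC the epithelial list, all 10 of its miRNAs present and led by miR-182-5p, summed to a mean of 130200 TMM CPM at E16, 17670 at P0 and 1910 at P16, with 4 of 7 tested lower by edgeR at P0 than at E16, 6 lower at P16 than at E16, and 3 lower at P16 than at P0. Of the oligodendrocyte list, 3 of 3 tested were higher at P16 than at either earlier time point. The muscle list summed to 140 to 347 at E16 and to 33.4 or less in every later library, with 2 of 4 tested lower at P0 and at P16 than at E16. The blood list had a mean of 204 at E16 and 893 at P16, with 2 higher and 1 lower of 7 tested and a median log2 of -0.76, against the direction of the sum, which is led by miR-150-5p. Of all 694 miRNAs tested, 6.63% were called at P0 vs E16, 41.2% at P16 vs E16 and 16.1% at P16 vs P0. All these calls are from fits without the library set. Set C held the lowest epithelial sums of P0 (4448) and of P16 (571 and 1603 TMM CPM), so that set and time are mixed.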
